A study of Mus musculus with 27 samples.

Results

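The constitutive proteasome is encoded by the Psma, Psmb, Psmc and Psmd genes, and these were followed in mouse ovary RNA across age and across 2 inhibitors of thioredoxin reductase. Members were the protein-coding genes whose symbol is Psma, Psmb, Psmc or Psmd followed by a number, leaving out the immune forms Psmb8, Psmb9 and Psmb10, which gave 36 of the 51789 genes in the count table. They comprised 7 alpha-ring genes of the 20S core (Psma1 to Psma7), 3 catalytic and 4 non-catalytic beta-ring genes, and 2 core genes known as tissue-restricted, Psma8 of the testis and Psmb11 of the thymus. The 19S regulatory particle was represented by 6 ATPases of its base (Psmc1 to Psmc6), 3 other base genes (Psmd1, Psmd2, Psmd4) and 8 lid genes. The remaining 3 members, Psmd5, Psmd9 and Psmd10, encode chaperones that help to assemble the base.

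The RNA came from whole ovaries, and polyA transcripts were counted by 3′ tag sequencing in 2 experiments, with 1 library per mouse. Experiment 1 held 4 aged mice given TRi-1, 4 aged untreated mice and 5 young untreated mice. Experiment 2 held 4 aged mice given auranofin, 5 aged untreated mice and 5 young untreated mice. TRi-1 and auranofin both inhibit thioredoxin reductase, TRi-1 as an inhibitor aimed at the cytosolic enzyme and auranofin as a gold-containing drug. The labels name no strain, age, dose or length of treatment. The replicates are taken as separate mice, and each drug was given in 1 experiment only, so drug and experiment cannot be told apart.

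In the proteasome, proteins tagged with ubiquitin are recognised, unfolded and threaded by the 19S particle into the barrel of the 20S core, where the catalytic beta subunits cut them. Cells are known to raise proteasome subunit transcription together when the proteasome is inhibited, through the transcription factor NRF1 (Nfe2l1), which binds antioxidant response elements in subunit promoters. In the ovary the proteasome is known for degrading cell cycle regulators during oocyte maturation. In immune cells and under interferon, the catalytic subunits are replaced by the immune forms.

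Promoter sequences are shown for the members on which the results below turn, a pair of core genes and a lid gene that fell with age and the catalytic genes Psmb5 and Psmb6, which did not pass the test. Each window holds 250 bases before and 50 bases after a gene's start, 300 bases from RefSeq on GRCm38.p6. Capitals mark the antioxidant response element core TGACNNNGC, the ETS factor motif CCGGAAG or the CCAAT box, each searched on both strands and counted separately where motifs overlap.
Psma4 (chr9:54950609-54950908, plus strand): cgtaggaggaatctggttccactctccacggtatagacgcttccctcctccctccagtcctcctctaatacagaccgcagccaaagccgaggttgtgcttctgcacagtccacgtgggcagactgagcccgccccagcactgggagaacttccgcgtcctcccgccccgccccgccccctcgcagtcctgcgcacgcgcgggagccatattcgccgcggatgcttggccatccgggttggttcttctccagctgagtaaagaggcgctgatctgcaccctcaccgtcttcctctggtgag
Psmb3 (chr11:97703184-97703483, plus strand): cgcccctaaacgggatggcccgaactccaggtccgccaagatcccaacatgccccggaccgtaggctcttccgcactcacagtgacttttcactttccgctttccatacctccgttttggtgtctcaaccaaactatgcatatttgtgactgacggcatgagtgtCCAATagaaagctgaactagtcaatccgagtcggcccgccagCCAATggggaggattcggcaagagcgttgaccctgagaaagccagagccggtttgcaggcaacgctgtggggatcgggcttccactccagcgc
Psmd11 (chr11:80428365-80428664, plus strand): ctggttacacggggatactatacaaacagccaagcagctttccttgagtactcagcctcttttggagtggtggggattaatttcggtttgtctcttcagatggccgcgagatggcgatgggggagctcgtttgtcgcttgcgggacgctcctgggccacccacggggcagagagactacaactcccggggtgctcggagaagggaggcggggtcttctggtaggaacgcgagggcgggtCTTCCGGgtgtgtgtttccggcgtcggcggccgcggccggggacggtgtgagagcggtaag
Psmb5 (chr14:54617946-54618245, minus strand): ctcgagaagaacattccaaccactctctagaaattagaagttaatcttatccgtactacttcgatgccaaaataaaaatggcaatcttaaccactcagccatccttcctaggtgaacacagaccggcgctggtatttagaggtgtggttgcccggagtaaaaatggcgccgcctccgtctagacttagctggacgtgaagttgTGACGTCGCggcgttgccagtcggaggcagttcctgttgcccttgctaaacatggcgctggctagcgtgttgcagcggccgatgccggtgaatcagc
Psmb6 (chr11:70525107-70525406, plus strand): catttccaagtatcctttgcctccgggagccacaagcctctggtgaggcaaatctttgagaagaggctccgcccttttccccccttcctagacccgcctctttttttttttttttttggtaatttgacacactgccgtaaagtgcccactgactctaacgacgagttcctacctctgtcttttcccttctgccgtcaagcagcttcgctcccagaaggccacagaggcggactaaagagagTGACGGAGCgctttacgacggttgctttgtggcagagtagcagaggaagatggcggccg
The element core TGACNNNGC was found in Psmb5 as TGACGTCGC, 47 bases before the start, and in Psmb6 as TGACGGAGC, 9 bases before it. Psmd11 held CTTCCGG, the ETS motif on the other strand, 11 bases before its start, and Psmb3 held 2 CCAAT boxes. None of these motifs was found in the Psma4 window. Windows were matched for 29 of the 36 members, 31 windows in all. Of these, 16.1% held TGACNNNGC (Psmb5, Psmb6, Psmc6, Psmd9 and Psmd12), against 12.4% of all 32851 windows. CCGGAAG stood in 35.5% of member windows and 8.86% of all windows. CCAAT stood in 38.7% and 37.4%, and the cyclic AMP element TGACGTCA in 0 member windows and 1.79% of all windows. A match is a description of the letters and not a shown binding site.

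Library totals ran from 6460903 to 14814381 counts. Levels are CPM, counts scaled to the size of the library, on 1 scale over the 27 libraries, not divided by length, so they are compared between samples and not between genes. Every member had counts in all 27 libraries except Psmb11, which had counts in 25. Changes are log2 fold changes with standard errors, and calls are adjusted p under 0.05 by edgeR's quasi-likelihood test over all genes tested. Markers of some of the ovary's cell types moved with age. The summed level of 12 oocyte markers was 7.22 to 12.2 CPM in aged and 230 to 413 CPM in young ovaries of experiment 1, and 4.14 to 12 CPM against 4.11 to 170 CPM in experiment 2. The summed level of 8 macrophage markers was 6160 to 9800 CPM in aged and 710 to 1120 CPM in young ovaries of experiment 1. The summed level of 10 granulosa markers was 151 to 214 CPM in aged and 723 to 1730 CPM in young ovaries of experiment 1, and 101 to 658 CPM against 167 to 1320 CPM in experiment 2, where the groups overlapped. Of these markers Fshr was at 0 in all untreated aged ovaries of both experiments, and Amh in those and also in all young ovaries of experiment 2. The sums of 7 theca and stroma markers overlapped in experiment 1, at 4470 to 6440 CPM in aged and 3540 to 5840 CPM in young ovaries. Those of 8 hepatocyte markers were 8.62 to 2070 CPM and 167 to 496 CPM there. In experiment 2 the hepatocyte sums were 2.88 to 10.4 CPM in aged and 4.22 to 38.5 CPM in young ovaries. Their source was not tested. A group of 5 libraries stood apart from their own groups (young replicate 3 and aged replicate 1 of experiment 1, young replicates 2 and 3 and auranofin replicate 4 of experiment 2), and counts of calls are given below also without them.

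In experiment 1 genes of the 20S core fell with age. Of the 36 members, 11 fell and 1 rose in aged against young untreated ovaries, a share of 33.3% called, close to the 34.9% called among all 16028 genes tested. By direction, 16.4% of all genes fell and 18.5% rose. The 20S genes held 7 of the falls, among 14 alpha and beta genes (median log2 fold change -0.72), and the 17 genes of the 19S particle held 4 falls and 1 rise (median -0.23). Across all genes tested the median was 0.02. In whole tissue, fewer cells that express a gene and less of its RNA per cell cannot be told apart.

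**Figure D1:**
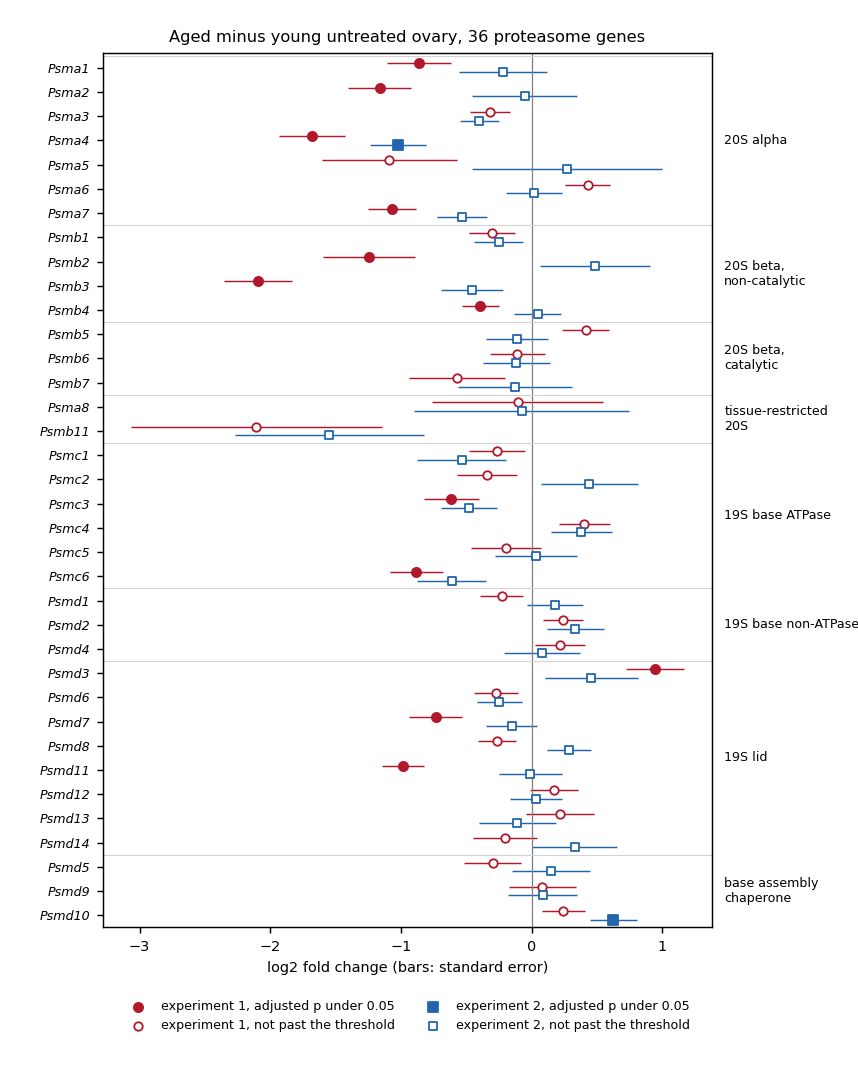
Log2 fold change of each of the 36 proteasome genes between aged and young untreated ovaries (x axis, bars are standard errors), in experiment 1 (red circles) and experiment 2 (blue squares), with filled symbols for edgeR adjusted p under 0.05. In experiment 1 there are 11 filled symbols left of 0 and 1 right of it, and in experiment 2 there is 1 on each side.

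Among the alpha-ring genes, which form the outer rings and the gate of the core, Psma1, Psma2, Psma4 and Psma7 fell in experiment 1. Psma4 had 199.4, 203.3, 192.0 and 150.8 CPM in aged ovaries, against 465.6, 699.4, 802.0, 523.4 and 514.9 CPM in young ovaries. Every aged library lay below every young one, and the change was -1.68 ± 0.25 (edgeR adjusted p = 0.00011). Psma7 had 384.2, 284.0, 363.4 and 279.8 CPM in aged ovaries, against 573.3, 755.8, 830.2, 643.8 and 651.2 CPM in young ovaries, again with no overlap. Its change was -1.07 ± 0.18 (edgeR adjusted p = 0.00038). Psma2 changed by -1.16 ± 0.24 and Psma1 by -0.86 ± 0.25 (edgeR adjusted p = 0.00148 and 0.0126), and the groups overlapped for both. Of the 3 alpha genes that did not pass, Psma6 had a log2 fold change of 0.43, Psma3 of -0.32 and Psma5 of -1.09.

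Of the non-catalytic beta-ring genes, which shape the inner rings of the core, Psmb2, Psmb3 and Psmb4 fell in experiment 1. Psmb3 had 110.9, 76.32, 86.65 and 118.7 CPM in aged ovaries, against 443.7, 466.3, 475.2, 405.4 and 326.1 CPM in young ovaries. The groups lay far apart, with the highest aged library under every young library. The change, -2.10 ± 0.26, had the smallest p among the members (edgeR adjusted p = 2.41e-05). Psmb2 changed by -1.24 ± 0.35 and Psmb4 by -0.39 ± 0.14 (edgeR adjusted p = 0.0124 and 0.0422). Psmb1 had a log2 fold change of -0.31 and did not pass.

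The catalytic genes did not pass the test in either experiment. Their log2 fold changes in experiment 2 were -0.11 ± 0.24 for Psmb5, -0.12 ± 0.26 for Psmb6 and -0.13 ± 0.43 for Psmb7. The sign of Psmb5 thus differed between the experiments. Psmb5, the chymotrypsin-like subunit, had 213.3, 159.2, 239.8 and 165.0 CPM in aged ovaries of experiment 1, against 159.8, 147.3, 171.1, 146.1 and 110.0 CPM in young ovaries. The log2 fold change was 0.41 ± 0.18 (edgeR adjusted p = 0.0849), with the lower aged libraries inside the young range. Psmb6, the caspase-like subunit, had 371.3, 221.5, 230.2 and 201.6 CPM in aged ovaries, against 296.8, 278.1, 333.5, 254.0 and 227.5 CPM in young ovaries, a log2 fold change of -0.11 ± 0.21. Aged replicate 1 was the highest library of the whole experiment, and the other aged libraries lay at the low end of the young range or below it. Psmb7, the trypsin-like subunit, had 34.0, 166.8, 132.9 and 81.48 CPM in aged ovaries, against 161.7, 168.2, 71.19, 220.4 and 163.4 CPM in young ovaries, a log2 fold change of -0.57 ± 0.37. Its libraries spread widely within both groups, and its end is overlapped on the opposite strand by Nek6, whose counts equal 45.8% of those of Psmb7.

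The immune forms that replace these catalytic subunits rose with age in both experiments. Psmb8 rose by 2.34 ± 0.30 in experiment 1 and 1.80 ± 0.35 in experiment 2 on the log2 scale (edgeR adjusted p = 3.06e-05 and 0.00414). Psmb9 rose by 1.30 ± 0.28 and 1.45 ± 0.34, and Psmb10 by 1.28 ± 0.25 and 1.14 ± 0.22. For each of the 3 genes the aged and young libraries did not overlap in either experiment (background for aged higher 14% and 6.46%). Markers of macrophages and of B and plasma cells rose with them (8 of 8 and 7 of 8 markers in each experiment). T cell markers rose too, 8 of 8 in experiment 1 and 7 of 8 in experiment 2. Of all genes, 18.5% rose in experiment 1 and 5.86% in experiment 2. The part of these cells in the rise was not tested.

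In the 19S particle, the lid genes Psmd7 and Psmd11 and the base ATPases Psmc3 and Psmc6 fell in experiment 1, and the lid gene Psmd3 rose. Psmd11, a lid subunit that bridges base and core, had 50.87, 36.73, 47.26 and 41.87 CPM in aged ovaries, against 104.6, 78.43, 75.46, 90.84 and 90.76 CPM in young ovaries. The groups did not overlap and the change was -0.98 ± 0.16 (edgeR adjusted p = 0.000249). Psmd7, the partner of the deubiquitinase Psmd14 in the lid, had 214.1, 152.9, 158.4 and 135.7 CPM in aged ovaries, against 229.0, 281.2, 380.4, 243.1 and 247.6 CPM in young ovaries. The change was -0.73 ± 0.20 (edgeR adjusted p = 0.0104), with aged replicate 1 close under the lowest young library. Psmc6 changed by -0.88 ± 0.20 and Psmc3 by -0.61 ± 0.21 (edgeR adjusted p = 0.00294 and 0.0327). Psmd3 had 81.91, 153.8, 132.7 and 148.6 CPM in aged ovaries, against 82.45, 65.57, 40.79, 87.85 and 63.91 CPM in young ovaries. Aged replicate 1 lay inside the young range and the other 3 above it, and the change was 0.94 ± 0.23 (edgeR adjusted p = 0.00405). The other 12 genes of the particle lay between -0.34 and 0.40.

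**Figure D2:**
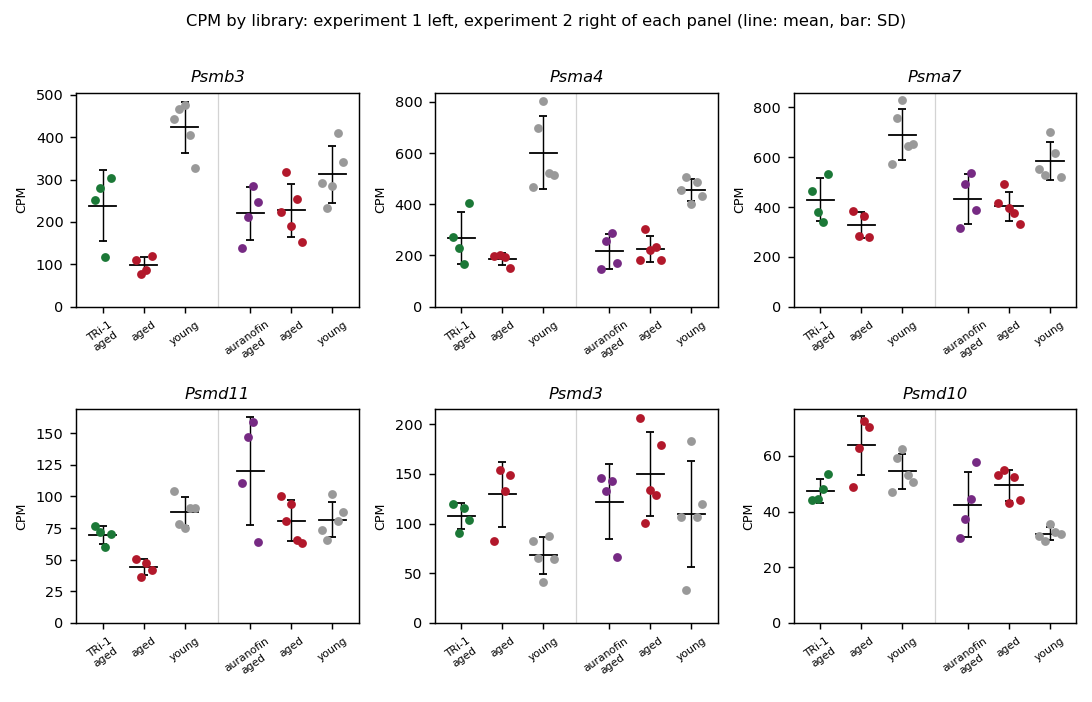
CPM of 6 proteasome genes (y axis) in each library, with the treated aged, untreated aged and young ovaries of experiment 1 left of the grey line and those of experiment 2 right of it. Black lines are group means with SD bars, and Psmb3 lies at 76.32 to 118.7 CPM in aged and 326.1 to 475.2 CPM in young ovaries of experiment 1.

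The 3 assembly chaperones did not pass in experiment 1. Psmb11 had 0.6159, 0.3061, 0.9358 and 0.0 CPM in aged ovaries, against 2.827, 2.635, 2.039, 1.195 and 1.459 CPM in young ovaries. All aged libraries lay lower than all young ones, yet with 297 counts in the whole table the log2 fold change was -2.11 ± 0.96 (edgeR adjusted p = 0.1). Psma8 had 0.3695, 2.245, 2.246 and 1.51 CPM in aged ovaries, against 2.601, 1.395, 1.298, 1.793 and 1.605 CPM in young ovaries, from 337 counts in the table, and the groups overlapped. For 9 members in all, the aged and young groups did not overlap with aged lower, and for 0 with aged higher. The background for non-overlap was 13.6% of all genes lower and 14% higher.

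In experiment 2 few members passed with age. Of the 36 members, 1 fell and 1 rose (5.56%), against 10.5% of all 16309 genes tested, with 4.59% falling and 5.86% rising. Psma4 fell again. It had 183.7, 304.8, 220.3, 231.0 and 183.6 CPM in aged ovaries, against 454.2, 507.7, 399.8, 487.8 and 430.5 CPM in young ovaries. The groups did not overlap, and the change was -1.02 ± 0.22 (edgeR adjusted p = 0.00652). Psmd10, the base assembly chaperone also known as gankyrin, had 53.09, 54.75, 42.9, 52.45 and 44.14 CPM in aged ovaries, against 31.08, 29.25, 35.51, 32.57 and 32.05 CPM in young ovaries. All aged libraries were higher than all young ones, and the rise was 0.63 ± 0.18 (edgeR adjusted p = 0.0391). In experiment 1 Psmd10 had 48.9, 62.96, 72.61 and 70.32 CPM in aged ovaries, against 47.16, 59.21, 62.48, 52.95 and 50.48 CPM in young ovaries, a log2 fold change of 0.24 ± 0.17 that did not pass.

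The other 10 genes that fell in experiment 1 had log2 fold changes nearer to 0 in experiment 2, 8 negative and 2 positive (Psmb2 at 0.49 and Psmb4 at 0.04), and did not pass there. These genes were chosen by their falls in experiment 1, so values nearer to 0 do not by themselves show a weaker age effect. Psma7 had 414.7, 493.9, 397.2, 374.4 and 333.2 CPM in aged ovaries, against 551.4, 527.7, 702.1, 616.0 and 519.1 CPM in young ovaries. The groups did not overlap, and the log2 fold change was -0.53 ± 0.19 (edgeR adjusted p = 0.0898). Psma7 passed by DESeq2 (adjusted p = 0.0271) and by edgeR in a fit of all 27 libraries (adjusted p = 0.0367). Psmb3 had 222.5, 316.8, 190.0, 254.8 and 151.6 CPM in aged ovaries, against 291.3, 232.2, 284.2, 410.5 and 342.0 CPM in young ovaries. Here the groups overlapped, and the log2 fold change was -0.46 ± 0.24 (edgeR adjusted p = 0.274). Psmd11 had 100.4, 80.89, 94.29, 65.99 and 63.25 CPM in aged ovaries, against 73.79, 65.44, 101.7, 80.69 and 87.38 CPM in young ovaries, a log2 fold change of -0.01 ± 0.24. The members' median was -0.03, as it was for all genes tested in experiment 2. Besides Psma4 and Psma7, Psma3 had no overlap with aged lower (background 4.7%), and Psmd10 was the 1 member with no overlap and aged higher (background 6.46%). Psma3 had a log2 fold change of -0.40 ± 0.15 (edgeR adjusted p = 0.116). Like Psma7, it passed by DESeq2 (adjusted p = 0.0116) and by edgeR in the fit of all 27 libraries (adjusted p = 0.0429). Psmb11 had 0.194, 0.8462, 0.5097, 0.1805 and 0.9024 CPM in aged ovaries, against 0.802, 0.4159, 2.169, 1.167 and 3.23 CPM in young ovaries, a log2 fold change of -1.55 ± 0.72 that did not pass. Psma8 lay between 0.5173 and 1.887 CPM in aged and between 0.2284 and 2.406 CPM in young ovaries.

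The difference between the 2 age effects was tested directly, as experiment 2 minus experiment 1, in 1 fit of all 27 libraries. No gene was called among 17484 (0 by edgeR, with 2067 at an unadjusted p under 0.05, and 172 by DESeq2), and of the members Psmb3 came closest, at 1.65 ± 0.35 (edgeR adjusted p = 0.086, DESeq2 adjusted p = 0.00325). Psmb3 was the 1 member called by DESeq2. The members' age effects in the 2 experiments, which share no library, had a Pearson correlation of 0.61 across the 36 genes, and 69.4% had the same sign. Across the 15512 genes tested in both experiments the values were 0.75 and 73.3%. Genes are not independent replicates, and libraries of an experiment are shared by all genes in it.

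Averaged over both experiments, 10 members fell and 3 rose with age (36.1%), against 35.3% of all genes called, 17.8% falling and 17.5% rising. Psma4 changed by -1.36 ± 0.16, Psmb3 by -1.28 ± 0.18 and Psma7 by -0.80 ± 0.13 (edgeR adjusted p = 4.36e-07, 3.23e-06 and 1.67e-05). Psma1, Psma3, Psmb11, Psmc3, Psmc6, Psmd7 and Psmd11 also fell, by 0.37 (Psma3) to 1.83 (Psmb11) on the log2 scale. The rises were Psmd3 (0.68 ± 0.22), Psmd10 (0.43 ± 0.12) and Psmc4 (0.39 ± 0.15). Psma1 lost its call when any of 11 of the 19 libraries was left out, Psmc4 with 14 of 19 and Psmd3 with 2 of 19.

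The 14 constitutive 20S genes summed to 2834 ± 119 CPM in aged and 4631 ± 448 CPM in young ovaries of experiment 1 (SD, n = 4 and 5), and the 17 genes of the 19S particle to 2487 ± 231 and 2802 ± 418 CPM. In experiment 2 the 20S sums were 2722 ± 243 CPM in aged and 3402 ± 463 CPM in young ovaries, and the 19S sums 2424 ± 211 and 2478 ± 412 CPM (SD, n = 5 each). The ratio of the 20S to the 19S sum was 1.05 to 1.24 in aged and 1.35 to 1.86 in young ovaries of experiment 1, with no overlap. In experiment 2 it was 1.04 to 1.18 in aged and 1.03 to 1.84 in young ovaries, which overlapped. The lowest young ratios, 1.35 in experiment 1 and 1.03 and 1.17 in experiment 2, belonged to libraries that stood apart. With TRi-1 the ratio was 1.27 to 1.40, which did not overlap that of untreated aged ovaries but did overlap that of young ovaries. With auranofin it was 0.702 to 1.038, overlapping the untreated aged range, which began at 1.035. Other abundant transcripts moved alongside. Ribosomal protein genes took 17.4% to 22.5% of counts in aged and 26.7% to 31.9% in young ovaries of experiment 1, and haemoglobin genes 9.52% to 22.7% and 1.87% to 8.19%. Their part in the sums was not tested.

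**Figure D3:**
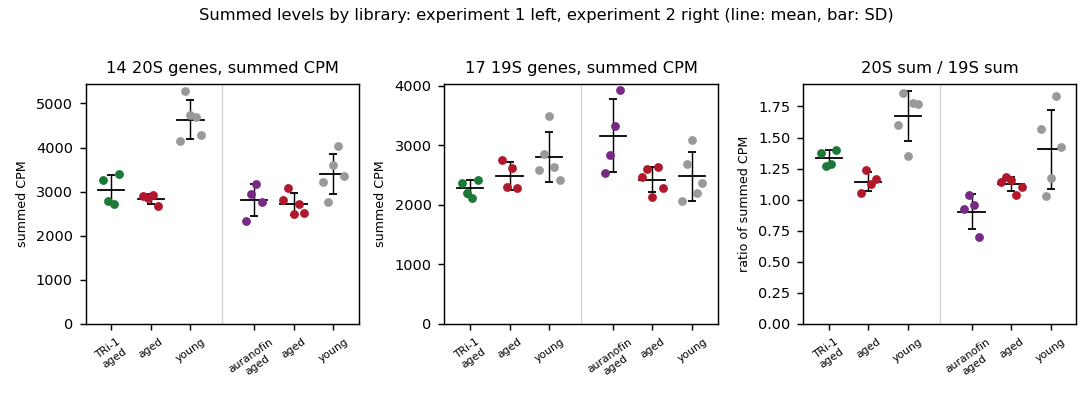
Summed CPM of the 14 constitutive 20S genes and of the 17 19S genes, and the ratio of the 2 sums (y axes), in each library, with treated aged, untreated aged and young ovaries of experiment 1 left of the grey line and those of experiment 2 right of it. Black lines are means with SD bars, and the 20S sums of experiment 1 lie at 2664 to 2935 CPM in aged and 4144 to 5292 CPM in young ovaries.

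TRi-1 was compared with no treatment in aged ovaries of experiment 1. Of the 36 members, 1 rose and 0 fell, against 0.418% of all genes called (0.175% higher). The riser was Psmb3. It had 251.2, 279.5, 116.8 and 304.5 CPM in TRi-1 ovaries, against 110.9, 76.32, 86.65 and 118.7 CPM in untreated aged ovaries. TRi-1 replicate 3 lay inside the untreated range and the other 3 libraries lay above it, and the change was 1.26 ± 0.26 (edgeR adjusted p = 0.0467). The call was lost when any of 7 of the 8 libraries was left out, all but TRi-1 replicate 3, with log2 fold changes of 1.16 to 1.38 and edgeR adjusted p from 0.0646 to 0.133. It was also lost with only the 2 groups in the fit. Psmb3 was also the member with the smallest p in the age comparison, which shares the same untreated aged libraries.

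Psmd11 had 76.46, 71.58, 60.18 and 70.37 CPM in TRi-1 ovaries, against 50.87, 36.73, 47.26 and 41.87 CPM in untreated aged ovaries. The groups did not overlap, and the log2 fold change of 0.64 ± 0.17 missed the threshold by edgeR (adjusted p = 0.0839) and passed it by DESeq2 (adjusted p = 0.0203). Psmb5 had 133.6, 131.3, 109.9 and 146.6 CPM in TRi-1 ovaries, against 213.3, 159.2, 239.8 and 165.0 CPM in untreated aged ovaries. All TRi-1 libraries lay lower, and the log2 fold change was -0.59 ± 0.19 (edgeR adjusted p = 0.145). The other catalytic genes had the same sign without a call, with 168.1, 229.0, 142.7 and 224.4 CPM for Psmb6 in TRi-1 ovaries (log2 fold change -0.44) and 87.2, 57.49, 99.79 and 79.5 CPM for Psmb7 (-0.39). Across the 36 members, 7 had an unadjusted p under 0.05, as did 2650 of all 16028 genes tested. The members' median log2 fold change was -0.12, against 0.00 for all genes tested. Groups did not overlap for 2 members with TRi-1 higher (Psma2 and Psmd11, background 4.5%) and for 5 with TRi-1 lower (Psmb1, Psmb5, Psmc3, Psmc4 and Psmd4, background 4.57%), where 9.07% of all genes had no overlap in either direction. Psma8 had 0.6443, 1.566, 0.3809 and 0.3258 CPM and Psmb11 0.6443, 1.29, 1.333 and 0.0 CPM in TRi-1 ovaries, and neither passed.

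**Figure D4:**
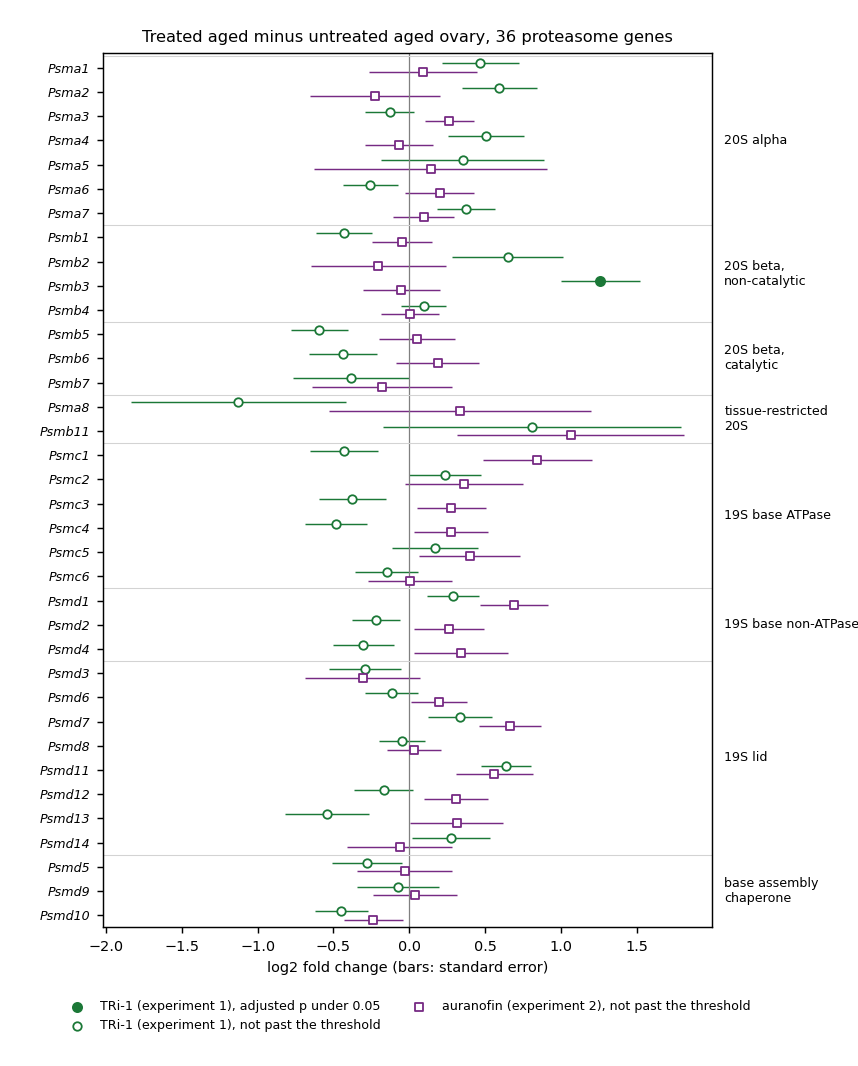
Log2 fold change of each of the 36 proteasome genes in treated against untreated aged ovaries (x axis, bars are standard errors), for TRi-1 in experiment 1 (green circles) and auranofin in experiment 2 (purple squares). The 1 filled symbol, edgeR adjusted p under 0.05, is Psmb3 with TRi-1 at 1.26.

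Auranofin was compared with no treatment in aged ovaries of experiment 2, and 0 of the 36 members passed, by edgeR or by DESeq2. Of all genes 0.0184% were called by edgeR (3 of 16309, with 1148 at an unadjusted p under 0.05). Of the members, 4 had an unadjusted p under 0.05, namely Psmc1, Psmd1, Psmd7 and Psmd11. Psmd7 had 268.8, 277.7, 436.4 and 295.5 CPM in auranofin ovaries, against 170.1, 221.9, 200.7, 216.3 and 191.5 CPM in untreated aged ovaries. All auranofin libraries lay higher, with replicate 3 far above the rest, and the log2 fold change was 0.66 ± 0.20 (edgeR adjusted p = 0.477). Psmd1, a scaffold subunit of the base, had 202.5, 250, 237.1 and 125.3 CPM in auranofin ovaries, against 147.2, 111.5, 140.3, 119.3 and 109.2 CPM in untreated aged ovaries, a log2 fold change of 0.69 ± 0.22 (edgeR adjusted p = 0.498). Psmc1, an ATPase of the base, had 245.4, 187.6, 323.9 and 644.6 CPM in auranofin ovaries, against 167.1, 228.1, 145.7, 243.6 and 179.4 CPM in untreated aged ovaries, a log2 fold change of 0.84 ± 0.36 (edgeR adjusted p = 0.665). Replicate 4, the auranofin library that stood apart, was the lowest of its group for Psmd1 and the highest for Psmc1.

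Of the 17 genes of the 19S particle, 15 had a positive log2 fold change with auranofin (median 0.31), and of the 14 constitutive 20S genes 8 did (median 0.03), where 8485 of the 16309 genes tested were positive (median 0.02). The 19S sum was 3161 ± 611 CPM in auranofin and 2424 ± 211 CPM in untreated aged ovaries (SD, n = 4 and 5), and replicate 4 had the highest, 3936 CPM. The 20S sums were 2809 ± 354 and 2722 ± 243 CPM. None of the catalytic genes passed. Psmb5 had 136.7, 158.9, 223.2 and 193.5 CPM in auranofin ovaries, against 153.5, 193.0, 146.5, 191.4 and 168.1 CPM in untreated aged ovaries (log2 fold change 0.05 ± 0.25). Psmb6 had a log2 fold change of 0.19 ± 0.27 and Psmb7 of -0.18 ± 0.46. Psmb11 had 2.101, 1.152, 0.4497 and 0.749 CPM in auranofin ovaries, a log2 fold change of 1.06 ± 0.75. Groups did not overlap for Psma3 and Psmd7 with auranofin higher (background 1.99%) and for 0 members with auranofin lower (background 1.54%), where 3.53% of all genes had no overlap in either direction. The difference between the drugs, auranofin minus TRi-1, called 0 members, against 0.0172% of all genes (3 of 17484). The values furthest from 0 at an unadjusted p under 0.05 were Psmb3 at -1.32 ± 0.37 and Psmc1 at 1.28 ± 0.44 (edgeR adjusted p = 0.207 and 0.284), and for DESeq2 also 0 members passed.

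Some members differed strongly between mice of 1 group. Leaving out Psma8 and Psmb11, the largest ratio of highest to lowest CPM within any group had a median of 2.41 over 34 members, was at least 3 in 10 and under 2 in 11. Psma5, an alpha-ring gene, ran from 1.58 to 41.1 CPM among the 4 auranofin ovaries, a ratio of 26. Psmb7 ran from 23.9 to 148 CPM and Psma2 from 83.1 to 508 CPM among young ovaries of experiment 2. Psma3 and Psmd8 were among the steadiest members, with largest ratios of 1.48 and 1.52. In the 5 libraries that stood apart, Psma1, Psma2, Psmb2, Psmb7 and Psmc6 lay below the mean of the other libraries of their group every time. A further 8 members lay above it every time, among them the ATPases Psmc1, Psmc3, Psmc4 and Psmc5 with Psmb6, Psmd4, Psmd9 and Psmd13. The last 1000 bases of the longest transcript, near the end that 3′ tags sample, had a median GC content of 37.2% in the first 5 genes and 52.7% in the other 8. The ranges overlapped, at 29.4% to 51.0% and 42.5% to 55.0%. For shorter transcripts, among them those of Psmb2 and Psmb6, the whole length was used. Over the 36 members the correlation between this GC content and the deviation was 0.28 to 0.61 in each of the 5 libraries, given as a description of genes in single libraries. The 5 libraries were picked for departing from their groups over genes of the whole table. The ratios, counts and GC values here were computed for members only, so they are not shown to be particular to them. The part of GC content in the age comparisons was not tested.

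**Figure D5:**
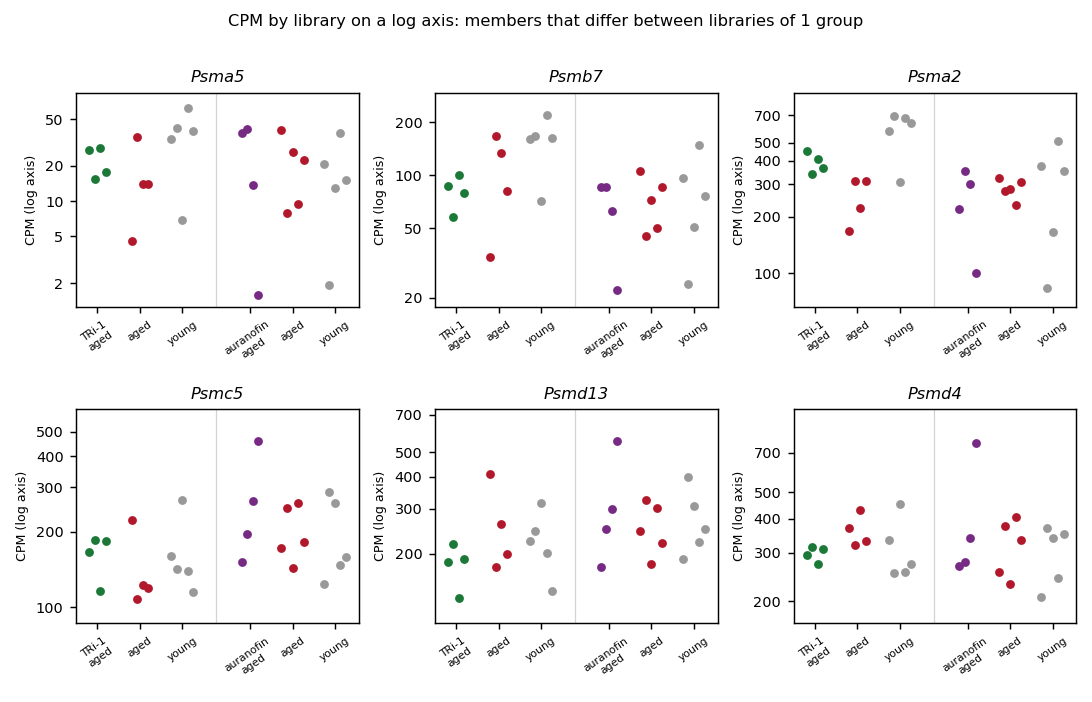
CPM on a log axis (y axis) of 6 proteasome genes in each library, with treated aged, untreated aged and young ovaries of experiment 1 left of the grey line and those of experiment 2 right of it. Psma5 spans 1.58 to 41.1 CPM among auranofin ovaries, and the library lowest for Psma5, Psmb7 and Psma2 there is the highest for Psmc5, Psmd13 and Psmd4.

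Without the 5 libraries, 12 members fell and 2 rose with age in experiment 1, where 14.6% of all genes fell and 16.6% rose. In experiment 2, 3 members fell (Psma3, Psma4, Psmc6) and 2 rose (Psmc4, Psmd10), where 5.39% of all genes fell and 7.46% rose. Psmc6 then changed by -0.97 in experiment 2 (edgeR adjusted p = 0.00208) and by -0.71 in experiment 1 (edgeR adjusted p = 0.00827). Averaged over both experiments 13 members fell and 5 rose, where 18.2% of all genes fell and 19% rose. Among these falls was the catalytic gene Psmb7, at -0.52 (edgeR adjusted p = 0.0445), which did not pass with all libraries. The rise of Psmb3 with TRi-1 was 1.32 without them and no longer passed (edgeR adjusted p = 0.0566), and auranofin still called 0 members.

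Around the proteasome, partner genes were called in both directions with age in experiment 1, where 18.5% of all genes rose and 16.4% fell. Of the activators and the inhibitor, Psme3, which encodes the nuclear activator, rose by 1.01 ± 0.18 and the inhibitor Psmf1 by 0.86 ± 0.22 (2 of 5 called), while Psme1 and Psme2, the interferon-inducible activator pair, had log2 fold changes of 0.40 and 0.11 and did not pass. In experiment 2 Psme3 rose again, by 0.71 ± 0.22 (edgeR adjusted p = 0.0478). Of 5 core assembly chaperones, Psmg3 fell by 0.99 in experiment 1, and Pomp, which guides beta-ring assembly, had a log2 fold change of 0.24. Of 12 bound cofactors and receptors, 3 rose and 3 fell in experiment 1. Among those that rose was Adrm1, a ubiquitin receptor, by 1.16 ± 0.20. Ecpas, a scaffold of the proteasome, fell by 1.40 ± 0.26 in experiment 1 and by 1.21 ± 0.29 in experiment 2. Sem1, a small lid protein, fell by 1.82 ± 0.46 in experiment 1. Its groups overlapped there, at 10.22 to 93.47 CPM in aged and 80.46 to 283 CPM in young ovaries. In experiment 2, 0 of the 12 rose and 1 fell, where 5.86% of all genes rose and 4.59% fell. Mean levels there were 139.2 CPM in aged and 132.1 CPM in young ovaries for Adrm1, and 87.33 and 114.5 CPM for Sem1.

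Of 5 regulators linked to proteasome transcription, 3 fell in experiment 1, against 16.4% of all genes. Nfe2l1 fell by 0.77 ± 0.16, Nfe2l2 (NRF2) by 0.77 ± 0.28 and Vcp, the ATPase that extracts NRF1 from the endoplasmic reticulum, by 0.56 ± 0.16 (edgeR adjusted p = 0.00147, 0.0444 and 0.0112). Ddi2 and Ngly1, the protease and the deglycosylase that process NRF1, had log2 fold changes of -0.03 and 0.10 and did not pass. In experiment 2, 0 of the 5 were called, where 10.5% of all genes were. Among ubiquitin genes and activating enzymes, Ubb rose by 0.69 ± 0.15 and Uba1 by 1.22 ± 0.18 in experiment 1. In experiment 2 their log2 fold changes were 0.37 ± 0.17 and 0.42 ± 0.22 (edgeR adjusted p = 0.196 and 0.276), and neither passed. Of 8 VCP cofactors, Ubxn1, Faf1 and Nploc4 rose and Faf2, Nsfl1c and Ufd1 fell in experiment 1, where 34.9% of all genes were called. Under TRi-1 and under auranofin 0 genes of these lists were called by edgeR. Txnrd1, the target of the drugs, had a log2 fold change of 0.41 ± 0.32 with TRi-1 and 1.90 ± 0.50 with auranofin (edgeR adjusted p = 0.571 and 0.413).

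The genes whose level followed the summed core and 19S members most closely over the 27 libraries, among 11310 genes with at least 5 CPM on average, were Eif2s2, Lsm7 and Cops5, with Pearson correlations of 0.91, 0.88 and 0.87 in log2 CPM. The 27 libraries fall into 6 groups that share age and treatment, so these values are descriptions. The genes were picked on these same libraries, so their changes with age follow in part from that choice. Eif2s2, a subunit of translation initiation factor 2, fell with age in experiment 1 by 1.12 ± 0.22, Lsm7, of the Lsm ring that binds RNA, by 1.25 ± 0.19, and Cops5, the deneddylase of the COP9 signalosome, by 0.80 ± 0.17. In experiment 2 their log2 fold changes were -0.73, -0.34 and -0.42, and none passed (edgeR adjusted p = 0.0561, 0.306 and 0.131).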

How the data were processed

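Ovary RNA was purified on RNeasy columns with DNase I and turned into Lexogen QuantSeq libraries, as the labels' protocols state. The authors deposited raw counts, 1 whole number per gene and library, without scaling. RSEM 1.2.3, DESeq2 and mm10 stand in the submitters' processing notes, with no role given. Annotation and counting strand are not given in the sources used here, and overlapping genes may therefore share reads: 7 members are overlapped by a gene with at least 1% of their counts. Near-identical pseudogene copies may also share reads with members. Symbols came from GENCODE M21 (GRCm38), which matched 51596 of 51789 gene IDs, and 0 columns belonged to other samples.

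The tests used edgeR 4.0.16 under R 4.3.3: TMM scaling, filterByExpr, a quasi-likelihood F test with 1 mean per group and Benjamini-Hochberg adjustment, threshold 0.05. Each experiment's 3 groups were fitted together, and effects over both experiments or differences between them came from 1 fit of 27 libraries. Standard errors are the log2 fold change over the square root of F. All 36 members passed the filter in every comparison. CPM were computed on TMM-scaled totals, with a prior count of 2 for log2 CPM. Named with every sample were, in each comparison within an experiment, the 3 members with the smallest p and the 3 with the largest change. The catalytic genes were named as well. Psmb6 and Psmb7 are given by sample in experiment 1 only, and Psmb5 in all groups but the young ovaries of experiment 2. Psmd3 was added after its values were seen. The members and lists were chosen with earlier results of these data known. Single values of some genes in the lists outside the 36 members are not reported here. Of 48 pairs of libraries within groups 0 were identical, and counts differed beyond sampling noise in all (chi-square per gene from 22.4 to 227). Alternatives were RLE size factors, DESeq2 1.42.0, no filter or at least 5 CPM, haemoglobin genes left out, the replicate number as a block, only the groups compared, all libraries in 1 fit, each library left out, and, added after seeing the data, 5 libraries left out whose median Spearman correlation with their group lay over 0.03 below the group's highest. The tests were checked on simulated counts with known folds given to a small part of the genes. In experiment 1 a 2-fold change was called in 14.9% of changed genes for age and 7.46% for TRi-1. In experiment 2 it was called in 2.99% for age and 0% for auranofin. A 4-fold change was called in 57.6%, 50%, 36.4% and 42.4%, in the same order. A member that did not pass is therefore not shown to be unchanged. Fewer genes were changed than were called with age in the data, where shares may differ. Plots used matplotlib 3.10.9 in Python 3.11.15. Promoter windows are from RefSeq on GRCm38.p6.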

Additional observations from a re-analysis of the deposited data

Results flagged for a closer look

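Among 228 sets of 4 or 5 libraries (the CPM of 1 member, the members' sum or the 20S to 19S ratio in 1 group), 15 had a highest or lowest library far from the rest by Dixon's test, where chance gives about 1 in 20. In the auranofin group, replicate 4 was highest for Psmd4 (755.9 CPM) and lowest for Psmd2 (89.47 CPM) and Psmd3 (66.58 CPM), replicate 3 was highest for Psmd7 (436.4 CPM), and replicate 2 was highest for Psma3 (328.8 CPM) in a group of narrow range. In untreated aged ovaries of experiment 1, replicate 1 was highest for Psmb6 (371.3 CPM), Psmc3 (281.6 CPM) and Psmc5 (223.1 CPM), and replicate 3 for Psmd6 (88.43 CPM) and Psmd8 (174.5 CPM). In young ovaries of experiment 1, replicate 3 was highest for Psmc1 (467.2 CPM) and replicate 2 for Psmc6 (193.0 CPM). In untreated aged ovaries of experiment 2, replicate 4 was lowest for Psmc6 (59.67 CPM). In young ovaries of experiment 2, replicate 3 was highest for Psma6 (273.0 CPM) and Psmb5 (317.1 CPM). Of these 15 values, 9 belong to libraries that stood apart as a whole.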

How the results depend on the processing

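The falls of Psma2, Psma4, Psma7, Psmb2, Psmb3, Psmc6, Psmd7 and Psmd11 and the rise of Psmd3 with age in experiment 1 held in all 18 alternatives, and that of Psma4 in experiment 2 in all 19. In experiment 1 Psmb4 lost its call in 10 of 18 and Psmc3 in 6 of 18. Psmd10 in experiment 2 lost it in 11 of 19, and members higher there numbered 0 with RLE size factors, with no filter and with the replicate block. DESeq2 called 587 genes for TRi-1 (2 members higher), 76 for auranofin, 172 for the difference of the age effects (1 member higher) and 93 for that of the drugs, and 3 members lower with age in experiment 2. For TRi-1, 167 genes were called with no filter, 172 at a mean of at least 5 CPM, 1 with the replicate block, 0 with only the 2 groups and 2 in the 27-library fit, and 0 members were higher in the last 3 fits or without the libraries that stood apart. The 27-library fit called 3 members lower with age in experiment 2 and 10 genes for auranofin. At 5 CPM the age difference had 6 genes and the drug difference 5, and with haemoglobin genes left out the age difference had 1. Without the libraries that stood apart, members higher with age were 2 in experiment 1, 2 in experiment 2 and 5 over both, members lower in experiment 2 were 3, and 15 genes were called for auranofin, 1 for the age difference and 29 for the drug difference. The causes were not tested. Leaving out each library in turn gave for TRi-1 0 to 164 genes, 0 to 1 members higher and a members' median of -0.133 to 0.0069. Members higher with age ranged from 1 to 3 in experiment 1, 0 to 1 in experiment 2 and 1 to 5 over both. The age difference ranged from 0 to 19 genes and 0 to 1 members, and the drug difference from 2 to 10 genes. Replicate numbers were not treated as pairs in the main tests. Of 17 pairs of groups and numbers, 5 had a correlation over 0.1 (range -0.32 to 0.6), which cannot exclude a shared batch. The replicate block gave 11 genes for auranofin and 1 for the drug difference, and 8 members lower with age in experiment 1. Depth limits Psma8 and Psmb11, with 337 and 297 counts in all.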
